A study of Mus musculus with 6 samples.

Results

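The 10 genes described here encode the nuclear receptors through which fatty acids, oxysterols, retinoids and thyroid hormone act on transcription: the PPAR genes Ppara, Ppard and Pparg, the RXR genes Rxra, Rxrb and Rxrg, the thyroid hormone receptor genes Thra and Thrb, and the LXR genes Nr1h2 and Nr1h3. They were chosen by gene symbol, and all 10 were found among the 23038 genes of the files. RNA came from mouse primary OPCs (mOPCs), the glial precursors of myelinating oligodendrocytes (OLs), which had been purified from E14.5 embryos by immunopanning and collected 72 h after transfection. The 3 siNC libraries received control siRNA and the 3 siQk libraries received siRNAs against Qk, the gene of the RNA-binding Qki proteins. According to the labels, 3 different siRNAs against Qk were used, but which siQk library received which siRNA is not given in the sources used here. The genotype, strain and pooling of embryos are likewise not given there. The labels call the libraries biological replicates, and the methods describe independent replicates of the cultured cells.

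Levels are given as RPKM (tags normalized to the length of the exons and to sequencing depth), which can be compared between genes since it is scaled by gene length. Fold changes are log2 values of siQk over siNC from edgeR's quasi-likelihood test on rounded tag counts with TMM scaling, fitted over all 12505 genes with an average logCPM above 0. The term called is used of genes with P below 0.01 and FDR below 0.1, after Benjamini-Hochberg adjustment over these genes. SE is the standard error of a log2 fold change. The libraries held 58166490 to 141045937 tags. The siNC replicate 1 library stood apart, since it was the smallest and gave 3.11% of its tags to Rn45s, a ribosomal RNA gene, where the others gave 0.169% to 0.389%. The targeted gene Qk had a mean of 193 ± 25.9 RPKM in siNC, which fell to 54.7 ± 20.4 RPKM in siQk (SD, n = 3 each; FDR 0.00311), with siQk replicate 2 keeping the highest level of the knockdown libraries, 76.6 RPKM. Of all tested genes, 31.0% were called (13.8% higher and 17.2% lower in siQk), and this share is the background for every count below. All 10 OPC markers were detected, with a summed level of 1044 to 1119 RPKM in siNC and 1241 to 1394 RPKM in siQk. The 10 fibroblast and vascular markers and the 5 adipocyte markers were not tested, and none of them exceeded 0.390 and 0.432 RPKM, respectively, in any library.

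These receptors are transcription factors that bind DNA through a zinc finger domain and a lipid-soluble ligand through a separate pocket. PPARs, LXRs and thyroid hormone receptors bind DNA mainly as heterodimers with an RXR, whose own ligands are retinoids, so that the RXR genes encode the shared partner of the other 3 families. Without ligand, thyroid hormone receptors and LXRs recruit corepressors, and ligand exchanges these for coactivators. In the OL lineage, thyroid hormone is a classical signal for precursors to leave the cell cycle and differentiate, and RXR gamma, PPARs and LXRs have each been tied to OL maturation, lipid synthesis or remyelination.

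The stretch that reads the DNA element, called the P-box, lies at the end of the first zinc finger. It is shown for the most abundant member of each family because it is the feature that all 10 genes share. The coding sequences are from GENCODE M21 on GRCm38, the assembly of mm10, with the P-box codons in capitals and the flanking codons in lower case. The stretch lies at chr11:98757003-98760884 (+) for Thra and at chr17:28295475-28297094 (+) for Ppard, in both with an intron inside it. It lies within 1 exon at chr17:34034039-34034068 (+) for Rxrb and at chr7:44552094-44552123 (-) for Nr1h2.
Thra: atcactTGTGAGGGCTGCAAGGGCttcttt
Ppard: cacgcgTGCGAGGGGTGCAAGGGCttcttc
Rxrb: tacagcTGCGAGGGCTGCAAGGGTttcttc
Nr1h2: ctcagcTGTGAAGGCTGCAAAGGCttcttc
The codons differed at the base level, with 9 distinct P-box codon strings among the 10 genes, but encoded the same residues in all 10. The families therefore share this DNA-reading element, while the levels given next differed between the genes by orders of magnitude.

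In siNC, 1 gene of each family carried nearly all of its mRNA, except for the RXRs. Thra was the most abundant receptor gene at 113 ± 8.28 RPKM, followed by Ppard (22.04 ± 2.48), Nr1h2 (21.4 ± 2.14) and Rxrb (20.4 ± 2.74), whose ranges overlapped in that order, and then by Rxra (7.05 ± 0.822, SD, n = 3 each). The other 5 genes lay below 1 RPKM in every library, with Ppara at 0.762 ± 0.153 RPKM, overlapping ranges for Nr1h3, Rxrg and Thrb, and Pparg lowest. In siQk the order changed at 1 place among the abundant genes. Rxrb, at 26.8 ± 1.53 RPKM, stood above Ppard (20.7 ± 0.413) and Nr1h2 (20.4 ± 0.908) without overlap in range. At the low end Thrb lay below Rxrg in every siQk library, and its range overlapped that of Pparg.

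**Figure D1:**
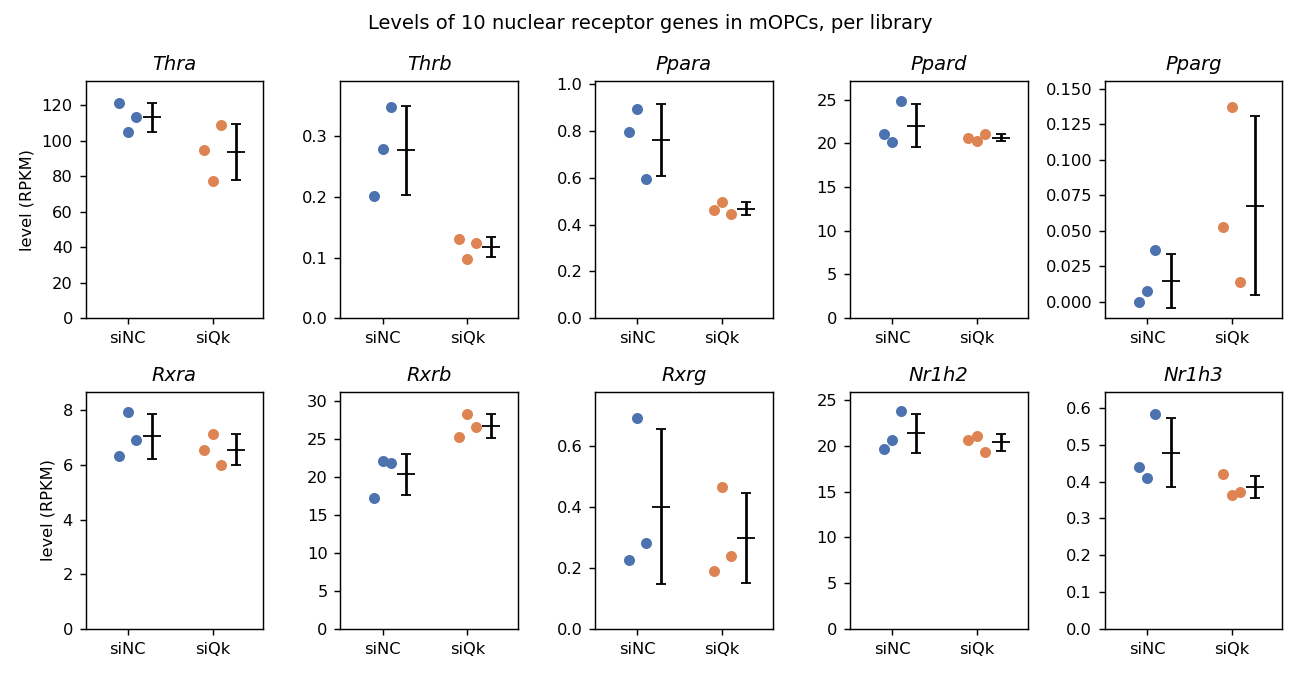
Level in RPKM on the y axis, from 0 in each panel except for Pparg, of each of the 10 receptor genes in the 3 siNC (blue) and 3 siQk (orange) libraries; each point is a library and the bar is the mean with its SD. The siQk points lie below all siNC points for Thrb and Ppara and above them for Rxrb, while the groups overlap for the other 7 genes.

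Of the 10 receptor genes, 7 passed the filter on low counts and were tested. Thrb and Ppara fell in siQk, no receptor gene rose at the cutoffs used, and 5 (Thra, Ppard, Rxra, Rxrb and Nr1h2) were not called, with P values from 0.0171 to 0.0335. The count of 2 called among 7 tested is near the background of 31.0%. The median log2 fold change of the 7 was -0.25, against 0.01 for all tested genes, with 6 below 0 and Rxrb above. In RPKM the groups were apart for 3 of the 7 tested genes, where 58.3% of all tested genes were apart. After TMM scaling they were apart for all 7, against 54.4% of all tested genes. Without TMM factors, scaled by library size only, the median of all tested genes moved to 0.16. The 6 genes below 0 and the 1 above 0 kept their signs there, and the 6 then lay below that median and Rxrb, at 0.39, above it.

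**Figure D2:**
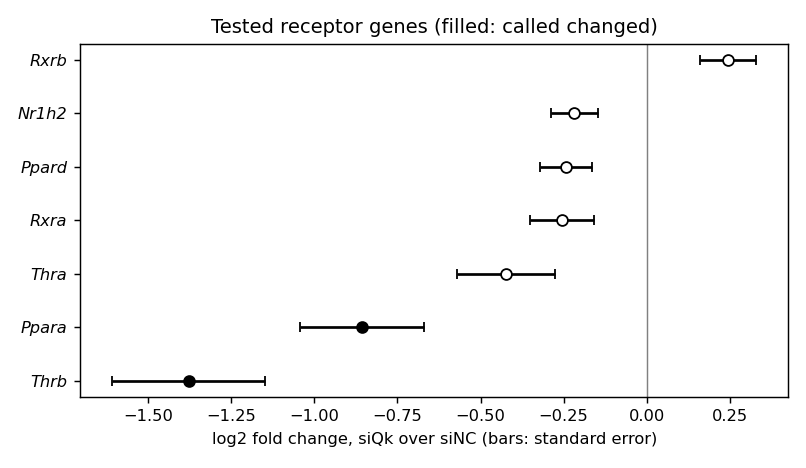
Log2 fold change of siQk over siNC on the x axis for the 7 tested receptor genes, with the standard error from edgeR's quasi-likelihood fit as bars and filled points for called genes. Thrb (-1.38) and Ppara (-0.86) are filled, and Rxrb (0.25) is the only gene right of 0.

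Thrb, the gene of thyroid hormone receptor beta (chr14:17660261-18038090, +), had the largest fold change of the tested receptor genes. Its level was 0.202, 0.279 and 0.348 RPKM in the siNC libraries and 0.130, 0.098 and 0.124 RPKM in the siQk libraries, from 53 to 301 tags. The groups did not overlap. The mean fell from 0.276 ± 0.0729 to 0.117 ± 0.0171 RPKM (SD, n = 3 each), and 42.4% of the siNC level remained. In edgeR's quasi-likelihood fit, which uses TMM scaling, the change was -1.38 on the log2 scale (SE 0.23, FDR 0.0056), a fold of 0.385. Without siNC replicate 1 it was -1.52, and Thrb was called in each of the 13 alternative settings that tested it, from -1.52 to -1.21. A stricter filter on low counts (average logCPM over 1) removed the gene. The antisense gene Gm48321 overlaps 90772 bases of the locus and was not tested. Among genes with an average logCPM over 3, those whose log2 CPM followed Thrb most closely over the 6 libraries were Irs4 (Pearson r = 0.997), Ildr2 (0.996) and Plekhg5 (0.995), with log2 fold changes of -1.86, -1.02 and -0.95. These correlations contain the difference between the groups and are given as a description.

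Thra, the gene of thyroid hormone receptor alpha (chr11:98740638-98769006, +), made up nearly all thyroid hormone receptor mRNA. It was at 121, 105 and 114 RPKM in siNC and at 94.9, 77.5 and 109 RPKM in siQk, so that siQk replicate 3 lay inside the siNC range. On the log2 scale the change was -0.42 (SE 0.15, FDR 0.0606 in edgeR), which was not called. It was called by DESeq2's Wald test (-0.43) and without siQk replicate 3 (-0.55, FDR 0.0384). The locus needs care, because Thra overlaps the 3' end of the antisense gene Nr1d1, the circadian repressor REV-ERB alpha, over 1075 bases. Transcript Thra-201, the longer form with 492 codons, shares 263 exonic bases with Nr1d1, while Thra-202 with 410 codons shares 0. The splice forms of Thra encode a hormone-binding receptor and a form that does not bind thyroid hormone, and the deposited gene values do not separate them. The library kit does not mark strand, so that reads of the shared stretch cannot be told apart. Nr1d1 fell from 27.9 ± 1.79 to 22.2 ± 2.76 RPKM (log2 fold change -0.48, FDR 0.0201), a call lost in 5 of 14 alternative settings, among them leaving out siNC replicate 1 (-0.41, FDR 0.0555), siNC replicate 3 (-0.49, FDR 0.0379), siQk replicate 1 (-0.50, FDR 0.0635) or siQk replicate 2 (-0.38, FDR 0.0508). The ratio of Thra to Nr1d1 in RPKM stayed between 3.96 and 4.41 over the 6 libraries.

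Ppara, the gene of the PPAR that drives fatty acid oxidation in liver and other tissues (chr15:85734983-85802819, +), fell in siQk. It was at 0.797, 0.893 and 0.594 RPKM in siNC and at 0.462, 0.498 and 0.444 RPKM in siQk, from 310 to 745 tags. The groups did not overlap, although siNC replicate 3 lay nearer to the siQk libraries than to siNC replicate 2. In RPKM the mean of the siQk libraries was 61.5% of that of siNC. With TMM scaling, edgeR gave -0.86 on the log2 scale (SE 0.19, FDR 0.0134), a fold of 0.552. The call was lost without siNC replicate 1 (-0.78, FDR 0.0397), siQk replicate 1 (-0.85, FDR 0.0543) or siQk replicate 3 (-0.83, FDR 0.0455), where P no longer passed its cutoff, while the direction held.

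Ppard, the gene of the widely expressed PPAR delta (chr17:28232700-28301474, +), was the PPAR of these cultures. It was at 21.1, 20.2 and 24.8 RPKM in siNC and at 20.6, 20.3 and 21.1 RPKM in siQk, and the groups overlapped before TMM scaling. Its log2 value of -0.24 (SE 0.079, FDR 0.0495) did not pass the P cutoff. It passed with DESeq2 (-0.25) and without siNC replicate 2 (-0.31, FDR 0.0153). Pparg, the gene of the PPAR that directs fat cell formation (chr6:115360951-115490399, +), was barely detected. It had 0, 2 and 11 tags in siNC and 17, 26 and 4 tags in siQk, or at most 0.137 RPKM, and was not tested. A count of 0 in siNC replicate 1 allows up to 3 tags, which is 0.0225 RPKM in that library (counting error only). The groups overlapped, and a fit without the filter on low counts gave 1.76 on the log2 scale (SE 1.0, FDR 0.243).

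Among the RXR genes, Rxrb (chr17:34031812-34038399, +) was the most abundant. Its level was 17.2, 22.1 and 21.8 RPKM in siNC and 25.4, 28.4 and 26.6 RPKM in siQk, so that the siQk libraries all lay above the siNC libraries (p = 0.1, exact two-sided permutation test, the lowest p that 3 against 3 can give). In edgeR the difference was 0.25 on the log2 scale (SE 0.085, FDR 0.0598), which was not called. This value depended on scaling, as it was called under upper quartile scaling (0.31, FDR 0.031) and with library size only (0.39, FDR 0.0247). Without siNC replicate 1 it was 0.17. Rxra (chr2:27676440-27762957, +) was at 6.31, 7.93 and 6.91 RPKM in siNC and at 6.55, 7.13 and 6.005 RPKM in siQk, with overlapping groups and a difference of -0.25 on the log2 scale (SE 0.096, FDR 0.0763). Rxrg (chr1:167598384-167639623, +), the subtype tied to OL differentiation, was at 0.226, 0.691 and 0.282 RPKM in siNC and at 0.189, 0.466 and 0.238 RPKM in siQk, from 31 to 181 tags, and was not tested. Replicate 2 was the highest library of both groups.

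The balance between RXR subtypes is a ratio within each library and so does not depend on how libraries were scaled. Rxrb made up 72.5%, 71.9% and 75.2% of the summed RXR RPKM in siNC and 79.0%, 78.9% and 81.0% in siQk, a difference of 6.41 percentage points of the means. Rxra made up 26.6%, 25.8% and 23.8% in siNC and 20.4%, 19.8% and 18.3% in siQk, or 5.89 points less. Neither pair of groups overlapped, and each gave p = 0.1 in an exact two-sided permutation test, the smallest possible with 3 libraries against 3 and 0.222 after Benjamini-Hochberg adjustment over the 10 shares compared. The Rxrg share was 1.39% ± 0.744 in siNC and 0.869% ± 0.374 in siQk, with overlapping ranges (exact permutation p = 0.4). The summed RXR level was 27.8 ± 3.63 RPKM in siNC and 33.6 ± 2.08 RPKM in siQk, and the groups were apart. After TMM scaling, an alternative chosen after seeing the data, these were 29.2 ± 2.74 and 31.9 ± 1.57, and the groups overlapped. Over all 10 receptor genes the sum averaged 186 ± 7.59 in siNC and 169.5 ± 13.6 in siQk (RPKM), and the ranges overlapped. After TMM scaling the sum was 185 to 208 in siNC and 146 to 176 in siQk, and the ranges were apart.

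**Figure D3:**
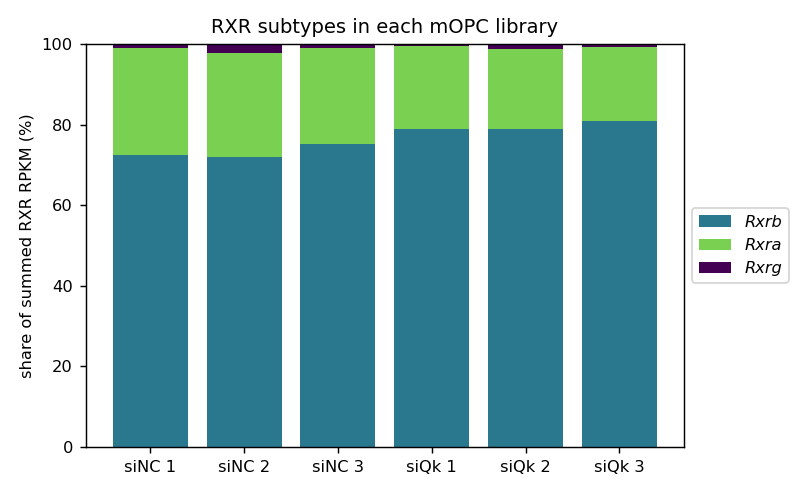
Share of the summed RXR RPKM (%, y axis from 0 to 100) held by Rxrb, Rxra and Rxrg in each library. The Rxrb share is 71.9% to 75.2% in the 3 siNC libraries and 78.9% to 81.0% in the 3 siQk libraries.

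The other families had 1 dominant subtype in both groups. Ppard held 96.5% ± 0.914 of the PPAR RPKM in siNC and 97.5% ± 0.462 in siQk, and Nr1h2 held 97.8% ± 0.223 and 98.1% ± 0.149 of the LXR RPKM (exact permutation p = 0.2 for both, overlapping ranges). Thrb held 0.246% ± 0.0716 of the thyroid hormone receptor RPKM in siNC and 0.126% ± 0.0114 in siQk (SD, n = 3 each, exact permutation p = 0.1). These ranges did not overlap.

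Nr1h2, the gene of LXR beta (chr7:44549616-44553951, -), was the LXR of these cultures. It was at 19.7, 20.6 and 23.8 RPKM in siNC and at 20.7, 21.1 and 19.4 RPKM in siQk, with overlapping groups. Its log2 value of -0.22 (SE 0.069, FDR 0.0472) did not pass the P cutoff, but passed with DESeq2. Nr1h3, the gene of LXR alpha (chr2:91184061-91202834, -), was at 0.440, 0.411 and 0.585 RPKM in siNC and at 0.421, 0.365 and 0.372 RPKM in siQk, from at least 50 tags in each library, and was not tested. Its groups overlapped in RPKM through siQk replicate 1. Of the 3 genes below the filter, none was called in a fit without it (FDR 0.198 for Nr1h3 and 0.415 for Rxrg).

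Qki proteins bind RNA at ACUAAC and ACUAAU, written ACTAAC and ACTAAT in DNA letters, so the longest annotated 3'UTR of each receptor gene was searched on the transcribed strand. A single match was present in Ppara (position 402 of 1561 bases, chr15:85801648-85801677, +) and in Nr1h3 (position 181 of 275 bases, chr2:91184138-91184167, -), both in the last exon. The matches are shown in capitals with the bases around them.
Ppara: aaatccctgaaaACTAATctgcacttttta
Nr1h3: cagttgggatctACTAACgttgtataccat
The 3'UTR of Thrb, at 4424 bases the longest of the 10, had no match. The receptor genes thus held a match in 2 of 10 (20%, 0.148 per kilobase), against 32.5% of 20605 genes with an annotated 3'UTR of at least 50 bases (0.362 per kilobase) and 36.1% of the tested genes (0.345 per kilobase). A match is a run of letters, and binding was not measured here.

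Beyond the receptors, the lists of partner, ligand and target genes held 129 genes, of which 83 were tested. Of these, 33 were called (39.8%, against 31.0% of all tested genes), 6 higher and 27 lower in siQk, with a median log2 fold change of -0.23. The count was 31 without siNC replicate 1 and ranged from 27 to 43 over the alternative settings. As the lists were chosen with earlier results of these data known, their shares beside the background are a description only.

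Coregulator genes moved in both directions. Of 11 coactivator genes, all tested, 1 was called, and the list had a median of 0.14 (0.28 with library size only, where 4 were called). This was the acetyltransferase gene Kat2b, which fell from 17.5 to 12.9 RPKM (log2 fold change -0.59, FDR 0.025), a call lost in 7 of 14 settings, including each of siNC replicates 1 and 3 and siQk replicates 1, 2 and 3 left out in turn (-0.61 to -0.46, FDR up to 0.0839). The steroid receptor coactivators Ncoa1 (0.11) and Ncoa2 (0.09) were not called. Of 8 corepressor genes, 3 were called, with a median of 0.21 (0.36 with library size only, where 6 were called). The count was 1 with any 1 siQk library left out. Tbl1x, a subunit of the NCoR complex, rose from 27.3 to 41.4 RPKM (0.45, FDR 0.00308) and was called under all 14 alternatives. Ncor1, the core corepressor of unliganded thyroid hormone receptors, rose from 33.2 to 44.5 RPKM (0.27, FDR 0.0163) and lost its call under 4 of them, which include leaving out any siQk library (0.25 to 0.29, FDR up to 0.0594). Lcor fell (-0.59, FDR 0.0253), and its call was lost under 6 settings, among them without siNC replicate 3 (-0.61) or any siQk library (-0.61 to -0.56, FDR up to 0.0816).

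Other receptors that pair with RXR reached at most 7.75 RPKM in any library. Of 9 genes, 6 were tested and 2 fell, and this count of calls is near the background of 31.0%. These were Rara, the retinoic acid receptor alpha gene, from 1.73 to 0.934 RPKM (-1.04, FDR 0.00571), and Nr4a2 from 2.04 to 1.28 RPKM (-0.82, FDR 0.0105), both called under all 14 alternatives. Nr4a1 went the other way, from 3.96 to 7.53 RPKM with the groups apart (0.77, FDR 0.0352), but did not pass the P cutoff. The list median was 0.003 (-0.14 without siNC replicate 1 and 0.205 without siNC replicate 2). Among 29 other nuclear receptor genes, 15 were tested, 4 fell and 1 rose, a count of 5 calls that was 3 without siQk replicate 2 and 2 with library size only. The median was -0.15, and it was -0.25 without siNC replicate 1, -0.08 without siNC replicate 2, -0.26 without siQk replicate 3 and 0.01 with library size only. The glucocorticoid receptor gene Nr3c1 fell from 7.29 to 4.29 RPKM (-0.92, FDR 0.00115), and Nr2e1, which keeps neural progenitors undifferentiated, rose from 3.18 to 5.57 RPKM (0.66, FDR 0.00608). Nr2c1 (-0.36), Rora (-0.64) and Nr1d1 were the other calls. The Nr2c1 call was lost with library size only (-0.21, FDR 0.0796). The Rora call was lost in 7 of 14 settings, among them without siNC replicate 2 (-0.64) or 3 (-0.47) and without siQk replicate 2 (-0.61) or 3 (-0.56).

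Genes that supply the ligands moved in both directions. For thyroid hormone, 3 of 9 genes were tested and all 3 were called, 2 higher and 1 lower in siQk. The gene that fell is counted but not named here. The 2 that rose encode amino acid transporters that also carry thyroid hormone. Slc7a5 rose from 16.2 ± 1.28 to 24.6 ± 0.864 RPKM (0.45, FDR 0.0105). Slc7a8 rose from 0.313 ± 0.0795 to 0.842 ± 0.192 RPKM (1.29, FDR 0.0133), a call lost without siQk replicate 1 (1.18, FDR 0.0536) or 3 (1.19, FDR 0.0434). The deiodinase genes Dio1, Dio2 and Dio3, whose enzymes activate or inactivate the hormone, had group means of at most 0.0709 RPKM and were not tested. For retinoids, 5 of 12 genes were tested and 1 was called. Rdh10, which oxidizes retinol, fell from 4.51 to 3.96 RPKM (-0.34, FDR 0.0251), and this call was lost in 10 of 14 settings, including every library left out in turn (-0.36 to -0.30, FDR up to 0.0799).

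Fatty acid and oxysterol carriers and enzymes reached 2952 RPKM. Of 11 genes, 6 were tested, 3 fell and 1 rose, with a median of -0.67. This median depended on the filter on low counts, as it was -0.05 in a fit without it. Fabp5, the lipid chaperone that delivers fatty acids to PPAR delta, was at 1005, 682 and 772 RPKM in siNC and at 502, 458 and 467 RPKM in siQk (-0.95, FDR 0.00725). Fabp7, the brain fatty acid binding protein gene of glial progenitors, was at 1453, 1101 and 955 RPKM in siNC and at 2550, 2855 and 2952 RPKM in siQk (1.09, FDR 0.00649). These related carriers thus moved in opposite directions, and the groups were apart for both. Ptgds, which makes prostaglandin D and is abundant in OLs, fell from 1346 ± 481 to 425 ± 130 RPKM (-1.83, FDR 0.00886). Cyp46a1, which makes an oxysterol from cholesterol in brain, fell from 10.2 ± 1.96 to 5.94 ± 0.614 RPKM (-0.93, FDR 0.00866). These 4 were called under all 14 alternatives.

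The classical target genes of the receptors were called in 1 direction only, downward, at the cutoffs used. With library size only, which moved the median of all genes to 0.16, the medians of the LXR, PPAR and thyroid hormone target lists stayed below 0 (-0.325, -0.55 and -0.48). Of 13 LXR target genes, 12 were tested and 6 fell, against a background of 17.2% called lower, and the list median was -0.48 (-0.73 among genes with an average logCPM over 1). Since the list was chosen with earlier results of these data known, this comparison is a description only. The 6 genes act in cholesterol and phospholipid transfer (Abca1, Apoe, Pltp) and in fatty acid synthesis and desaturation (Srebf1, Scd1, Scd2). Scd1, a stearoyl-CoA desaturase gene, was at 115, 104 and 101 RPKM in siNC and at 39.1, 37.8 and 37.9 RPKM in siQk (-1.63, FDR 0.000365). Abca1, the cholesterol exporter, was at 32.1, 42.1 and 46.2 RPKM in siNC and at 15.3, 15.6 and 16.6 RPKM in siQk (-1.49, FDR 0.00058). In both genes the siQk libraries were nearly equal and far below the siNC libraries. Apoe fell from 46.5 ± 12.3 to 15.3 ± 2.26 RPKM (-1.76), Scd2 from 795 ± 124 to 357 ± 11 RPKM (-1.31), Pltp from 7.53 to 4.23 RPKM (-0.98) and Srebf1 from 20.9 to 14.1 RPKM (-0.73). The other 6 were not called. Among them were the fatty acid synthase gene Fasn (-0.02), Smpdl3a (-0.01) and Mylip, which marks the LDL receptor for degradation, at 0.83 (FDR 0.0509). All 6 calls held under the 14 alternatives.

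Of 19 PPAR target genes, 12 were tested and 7 fell, against a background of 17.2% called lower, and the list median was -0.70. This list too was chosen with earlier results of these data known, so the comparison is a description only. Most of the 7 act in fatty acid oxidation. Acadl, a mitochondrial acyl-CoA dehydrogenase gene, was at 58.2, 57.7 and 60.4 RPKM in siNC and at 31.2, 31.8 and 26.8 RPKM in siQk (-1.12, FDR 0.00047). The groups were apart. Cpt1a, which admits fatty acids to mitochondria, fell from 2.40 ± 0.930 to 1.04 ± 0.205 RPKM (-1.37, FDR 0.0154), a call lost without siNC replicate 1 (-1.35, FDR 0.0402), siQk replicate 1 (-1.25, FDR 0.0619) or siQk replicate 3 (-1.35, FDR 0.0501). Hadhb (-0.78), Ucp2 (-0.73), Acadm (-0.68) and Hadha (-0.44) were also called, of which Hadha was at -0.29 with library size only. The Ucp2 call was lost in 3 of 14 settings, among them without siNC replicate 1 (-0.67, FDR 0.0421) or siQk replicate 2 (-0.71, FDR 0.0528). Some members of the same pathway were not called. Acadvl (-0.15), Acaa2 (-0.09) and Slc25a20 (-0.06) lay near 0. Ehhadh, at a mean of 0.472 RPKM in siNC and 0.278 RPKM in siQk, lay at -0.90 (FDR 0.107). The targets best known from muscle, liver and fat, Pdk4, Angptl4, Ucp3, Fabp4 and Adipoq, had group means of at most 0.0216 RPKM and were not tested.

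Of 10 thyroid hormone target genes, 6 were tested and 2 fell, with a median of -0.64, which was -0.38 without siNC replicate 1. The 2 calls among 6 tested are near the background of 31.0% called (17.2% called lower), and they are too few to read a direction from. The count of calls was 1 without siQk replicate 1, without siQk replicate 2 and with library size only, and 4 with DESeq2. Me1, malic enzyme, which supplies NADPH for fatty acid synthesis, was at 23.7, 34.4 and 24.1 RPKM in siNC and at 13.5, 12.2 and 13.6 RPKM in siQk (-1.21, FDR 0.00206). The other call was Nr1d1, described above. Klf9 (-0.47, FDR 0.0733) and Hr (-0.42, FDR 0.0335), 2 direct targets in brain, were not called. Klf9 was at 52.6, 39.9 and 41.5 RPKM in siNC and at 34.1, 31.3 and 42.6 RPKM in siQk, where siQk replicate 3 lay inside the siNC range, as it did for Thra. For Hr, siQk replicate 3 (71.2 RPKM) lay above the lowest siNC library (70.4 RPKM).

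**Figure D4:**
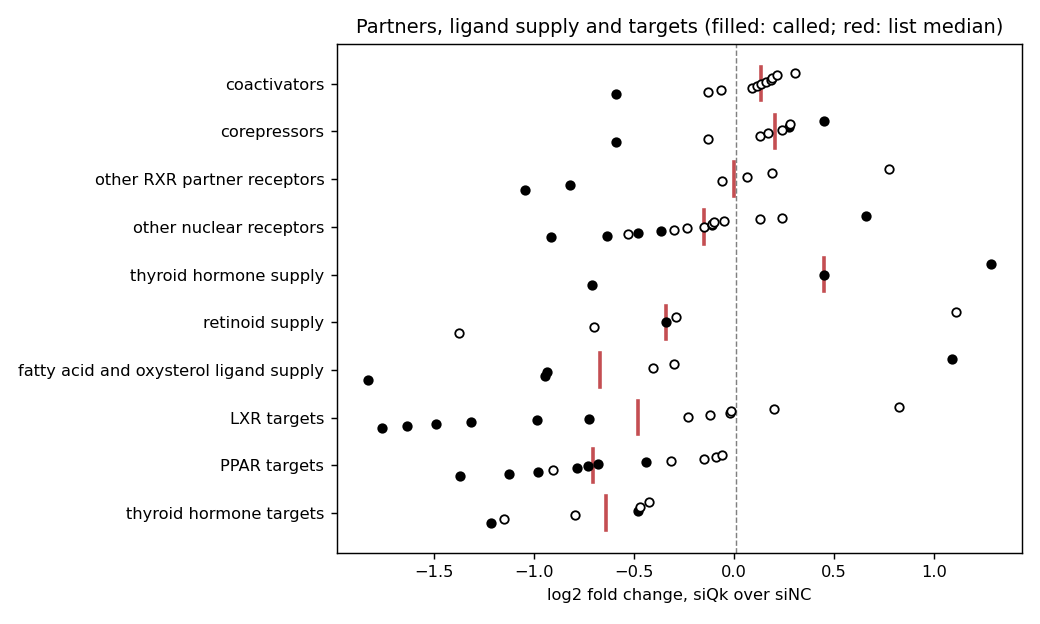
Log2 fold change of siQk over siNC on the x axis for each tested gene of the 10 lists of partner, ligand supply and target genes, with filled points for called genes, a red bar at the list median and a dashed line at the median of all tested genes (0.01). The medians of the PPAR, LXR and thyroid hormone target lists lie at -0.70, -0.48 and -0.64, and no target gene right of the dashed line is filled.

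The myelin genes moved with these targets. Of 11 myelin and mature OL genes, 10 were tested and 7 fell, and their summed level was 3281 to 5686 RPKM in siNC and 1394 to 2068 RPKM in siQk, while Cspg4, Olig1 and Olig2 rose and Lhfpl3 fell among the 10 OPC markers. Of 8 astrocyte markers, 4 fell (Gfap, Aldh1l1, Slc1a2 and Slc1a3), with a summed level of 289 to 410 RPKM in siNC and 284 to 307 RPKM in siQk, and Gja1 was near 0. Of 8 neuron markers, 3 rose (Snap25, Nefl and Map2), and Stmn2 was near 0. The other tested neuron markers were not called and split in direction. Tubb3 (-0.57), the most abundant of the list in siNC, and Rbfox3 (-0.57) lay below 0, while Syt1 (0.87) and Nefm (0.86) lay above. The siNC sum was 153 to 242 RPKM, and the siQk sum was 181 to 223 RPKM. Of 10 microglia and macrophage markers, 8 lay below 0.5 RPKM in all libraries, C1qa and C1qb at 0, and 1 of the 2 tested fell, P2ry12, from 1.69 to 0.208 RPKM (-3.16, FDR 0.00886). The sum was 2.73 to 5.80 RPKM in siNC and 1.39 to 2.08 RPKM in siQk. In bulk RNA, fewer cells of a type and less RNA per cell cannot be told apart, and the part of these differences in the receptor and target results was not tested.

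Of the abundant targets that fell, 2 are shown for the Qki letters in their longest 3'UTR. The matches of the LXR targets Abca1 and Scd1 are shown in capitals, and these genes were chosen after their values had been seen. All lie in the last exon on the minus strand, at chr4:53031976-53032005, chr4:53031471-53031500 and chr4:53031187-53031216 for Abca1, and at chr19:44397837-44397866 and chr19:44395411-44395440 for Scd1.
Abca1 site 1: gacaagtttgatACTAATgtcaacataggt
Abca1 site 2: agtggaaaacttACTAACtgtgaatatgag
Abca1 site 3: tgatactgaattACTAATttgtactttcat
Scd1 site 1: ttctgttgattaACTAACaactggatattg
Scd1 site 2: ccagatgaatgtACTAATagctttgggtgc
The same letters stood in the 3'UTR of 32.5% of all genes with an annotated one, and binding was not measured. These 3'UTRs are long, at 3156 bases for Abca1 and 3464 bases for Scd1, and the rate over all genes was 0.362 per kilobase. Matches are therefore common in 3'UTRs of this length. Those of the other LXR targets that fell are not shown.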

How the data were processed

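RNA of 3 siNC and 3 siQk mOPC libraries was analysed. Per the labels and the paper, the authors made poly-A libraries with a TruSeq kit that does not mark strand, sequenced 75-nt paired ends, aligned them to mm10 with OLego and counted genes with Quantas. Versions and the gene annotation are not given in the sources used here. The authors deposited, per library and gene, an unnormalized tag number, which is an estimated count and has decimals in 23.1% to 26.2% of genes, and the RPKM computed from it, from the exon length and from the library total (recomputed values differed by at most a share of 1e-14). Reads could be split between overlapping genes or paralogs.

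The expected counts were rounded and compared between replicates (chi-square per degree of freedom at least 36.3, so each library was kept as a replicate). Genes with an average logCPM over 0 were tested with edgeR 4.0.16 (limma 3.58.1, R 4.3.3): TMM factors of 0.899 to 1.07, quasi-likelihood F test, group as the only term. SE was obtained as the size of the log2 value over the root of F. On simulated data for this comparison (12496 genes, 198 of them changed by 1 on the log2 scale) 99% were called, and 10.1% of the calls were false. The simulation gave every gene the same spread between replicates, few changed genes and no library that stood apart. Its shares therefore need not hold for the real data or for smaller changes. Shares and single levels were compared with exact two-sided permutation tests over libraries. Alternatives were DESeq2 1.42.0, other scalings and filters, another cutoff, the replicate block, each library left out and, chosen after seeing the data, TMM-scaled family sums. 3'UTRs were taken from GENCODE M21.

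The members, the gene lists and the markers were chosen with earlier results of these data known. Named genes were the 10 receptor genes, Qk, genes overlapping a receptor gene, the genes most like Thrb, and of each pathway list the called member with the highest and with the lowest log2 fold change and up to 2 more of highest average logCPM. Abca1, Pltp, Acadm, Hadhb, Ucp2, Rora and all members named as not called were outside that rule and were chosen after their values were seen. A few list members are counted but not reported here by name. Myrf and Map2 were matched through Entrez identifiers.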

Additional observations from a re-analysis of the deposited data

How the results depend on the processing

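Over the 14 alternative settings no receptor gene changed sign. Rxra was not called in any of them. The number of receptor genes called was 5 with DESeq2 (Ppara, Ppard, Thra, Thrb and Nr1h2), 4 at an FDR below 0.05 alone and 1 with an average logCPM over 1, and it ranged from 1 to 3 with each library left out. The number of all changed genes, 3879, ranged from 2478 (without siQk replicate 1) to 3704 with each library left out and reached 4894 with DESeq2. The share of lower genes among the calls was 55.4% with TMM scaling, 44.4% under upper quartile scaling and 31.4% with library size only, with 2989 higher and 1365 lower genes in the last. As shares of summed tags instead of RPKM, Ppard differed by 1.89 percentage points (0.931 in RPKM) and Thra by 0.204 (0.121 in RPKM). Shares of tags, unlike shares of RPKM, are not scaled by exon length. That length was 7528 bases for Ppara, 4206 for Ppard, 6555 for Thrb and 3858 for Thra. The cause of the differences between the other settings was not tested.

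The replicate numbers gave no sign of pairing: the deviations of same-numbered libraries correlated at -0.0528, -0.152 and -0.34. With the replicate block, 2796 genes were called instead of 3879, and 2 receptor genes as before, with Thrb at -1.37 (FDR 0.0254) and Ppara at -0.83 (FDR 0.031). The block ended the calls of Ucp2 (-0.742, FDR 0.0474), Rora (-0.622, FDR 0.0835), Ncor1 (0.274, FDR 0.0565) and Rdh10 (-0.339, FDR 0.0741), where P no longer passed its cutoff. Limma on log2 RPKM was not run, since tag counts were available. Pparg, Rxrg and Nr1h3 had at most 181 tags in any library, did not pass the filter on average logCPM and were not tested.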
